A study of Caenorhabditis elegans with 5 samples.

Results

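The regions bound by PHA-4::GFP on chromosome II of *Caenorhabditis elegans* were all entries of the authors' 3 lists of enriched regions that lie on that chromosome. They numbered 1076 of the 7745 regions of the list that combines both replicates, and these 1076 are the members described here. The replicate 1 list held 595 regions on II of 4077 in all, and the replicate 2 list 776 of 5335. Members were taken by position alone; the chromosome was proposed with earlier results of these data known.

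The regions came from ChIP-seq, the sequencing of DNA crosslinked to a protein and pulled down with an antibody, here a goat antibody against GFP. All libraries were from hermaphrodite L2 larvae, the second larval stage, of strain OP37, which has the unc-119(ed3) mutation on chromosome III and the integrated transgene wgIs37. The transgene encodes a pha-4::TY1::EGFP::3xFLAG fusion and restores unc-119(+). Worms were grown at 20 °C on the *E. coli* strain HB101 and fixed with 2% formaldehyde. There were 3 immunoprecipitations, of which 1 is labelled replicate 1 and 2 are labelled replicate 2, and 2 inputs, both labelled replicate 1. Whether separate cultures stand behind the replicate numbers is not stated, so the repeats may be technical. Every library carries the same tagged transgene, introduced by bombardment, and the genotype names no mutation of the endogenous pha-4 gene. The material was whole larvae, so binding in one tissue cannot be told from binding in another. No strain without the tag was used here.

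PHA-4 is the FoxA transcription factor of *C. elegans*, named for the loss of the pharynx in mutants. It selects pharyngeal identity in the embryo and acts later in the gut, the gonad and in the response to food. FoxA proteins bind DNA through a winged-helix, or forkhead, domain. Each autosome of this worm has a gene-rich central cluster flanked by arms that hold fewer conserved genes and more repeats. The lists give positions on WormBase WS190 and no gene names; the genes at these positions and their sequences were not analysed here.

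Each region has a q-value from PeakSeq, a program that scores immunoprecipitated tags against a control. Its −log10 is called the score below and ranks the evidence for enrichment; it is not a level of binding. The lists carry no read counts, so depth is unknown, and a region that is missing from a list may have been missed for want of reads. Intervals on shares are 95% exact Clopper-Pearson intervals, intervals on medians are 95% order-statistic intervals, and both cover counting error only. Regions on a chromosome are not independent, so II was tested against III, IV, V and X with the 5 chromosomes as units, in an exact two-sided permutation test. The smallest p that this test allows is 0.2, so no difference between chromosomes could pass it. The 10 such tests of the planned measures, taken as a family, all had an adjusted p of 1 by Benjamini-Hochberg. Tests of the share among the strongest regions lay outside this family and were not adjusted.

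Across the chromosome, PHA-4::GFP regions were sparse over the left 4 Mb, dense from 5 to 12 Mb, sparse again between 12 and 13 Mb and of intermediate density (74.2 per Mb) from 13 Mb to the right end. These zone limits follow steps in the 1 Mb bin counts of the same regions. Contrasts in counts between zones, here and below, are therefore partly built in. The first 4 Mb held 150 combined regions, or 37.5 per Mb. The stretch from 5 to 12 Mb held 647 regions, or 92.4 per Mb, which is 60.1% of all members. Both replicate lists had the same profile. Replicate 1 had 18 regions per Mb in the first 4 Mb and 53.6 per Mb from 5 to 12 Mb, and replicate 2 had 26.2 and 67.1.

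In fixed bins of 1 Mb, the count of combined regions rose from 41, 33, 40 and 36 in the first 4 bins to 69 in the fifth. The next 7 bins held 99, 88, 80, 91, 105, 84 and 100 regions. The bin from 12000001 to 13000000 dropped to 42, and those after it held 73, 73 and, in the last 265034 bp, 22. The fullest bin was therefore 9000001 to 10000000, with 105 regions, 63 in replicate 1 and 73 in replicate 2. In replicate 2 itself the fullest bin was 5000001 to 6000000, with 78 regions. The emptiest was 1000001 to 2000000, with 33 combined, 12 replicate 1 and 18 replicate 2 regions. Over the 15 full bins, the counts of both replicate lists had a Spearman correlation of 0.87 and a Pearson r of 0.95, given as a description, since the bins share libraries and possibly a control.

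**Figure D1:**
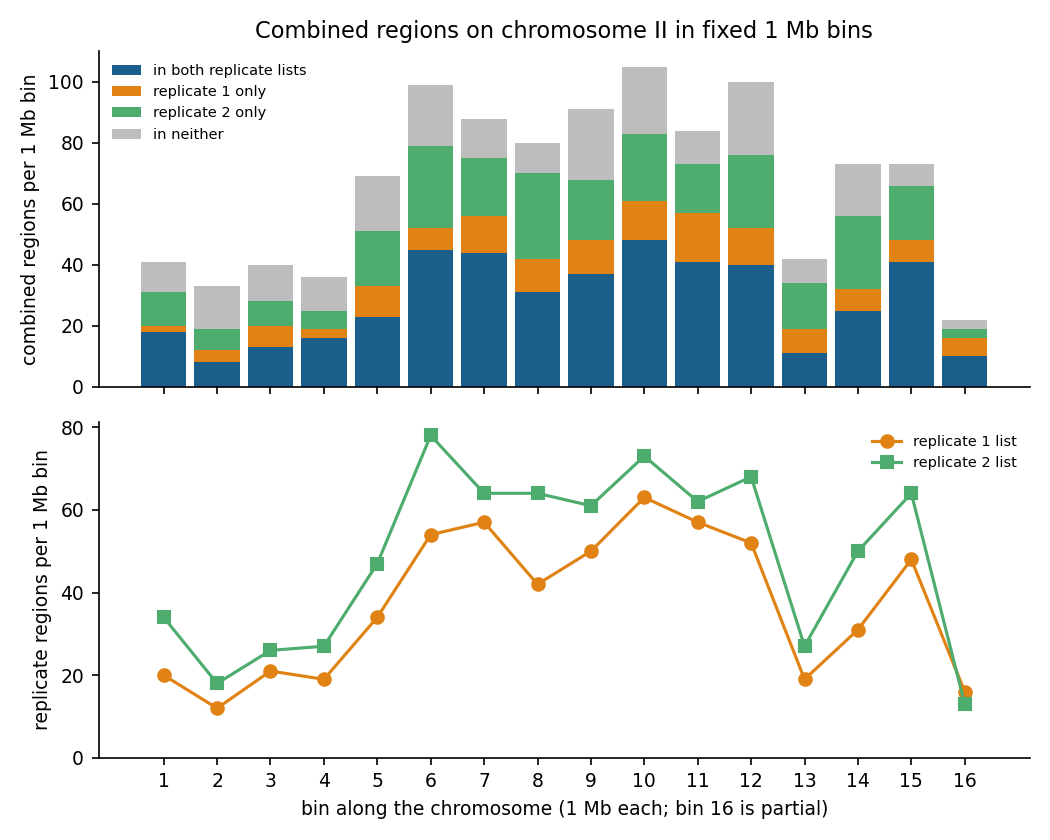
Combined regions on chromosome II per 1 Mb bin, coloured by the replicate lists in which they were found (top), and replicate 1 and replicate 2 regions per bin (bottom); bin 16 is partial. Counts lie between 33 and 41 in bins 1 to 4, between 80 and 105 in bins 6 to 12 and at 42 in bin 13.

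Replication was also counted along the chromosome. A member was taken as replicated when it shared at least 1 bp with a region of each replicate list. In the first 4 Mb 55 of 150 members were replicated (36.7%, interval 28.96 to 44.9), against 286 of 647 (44.2%, 40.3 to 48.1) from 5 to 12 Mb and 76 of 168 (45.2%, 37.6 to 53.1) beyond 13 Mb. The share was 23 of 69 (33.3%, 22.4 to 45.7) between 4 and 5 Mb and 11 of 42 (26.2%, 13.9 to 42.0) between 12 and 13 Mb. The intervals of all 5 zones overlap. The extremes of the full bins were 14000001 to 15000000, with 41 of 73 members replicated (56.2%, 44.1 to 67.8), and 1000001 to 2000000, with 8 of 33 (24.2%, 11.1 to 42.3). The intervals of these 2 bins do not overlap, but the bins were picked as the highest and the lowest after their values were seen. Median q also differed between these 2 bins: it was 7.66e-07 in the bin at 14000001 and 0.000415 in the bin at 1000001. The part that strength plays in the share was not tested.

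The profile was set against the other chromosomes. When every chromosome was cut into 3 parts of equal length, the central part of II held 475 of 1076 members (44.1%, interval 41.2 to 47.2). Chromosome V had a higher share (47.5%), and IV (42.2%), III (38.9%) and X (35.1%) had lower ones. The interval of II overlapped those of III, IV and V but not that of X, which ended at 37.6%. With chromosomes as units, the exact permutation p for II was 0.8. The left part of II held 226 members and the right part 375. Across full 1 Mb bins the coefficient of variation of the counts was 36.3% on II, 38.9% on V, 31.5% on IV, 22.7% on III and 17.9% on X. The fullest bin of II held 3.18 times as many regions as the emptiest, a ratio lower than those of IV (3.76) and V (3.70) and higher than those of III and X (2.13 each).

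In overall density, coverage and width, II lay among the other chromosomes. Its 70.5 combined regions per Mb stood between V (64.8) and IV (68.5) below and III (77.2) and X (78.7) above. The members covered 491883 bp, 3.22% of the 15265034 bp to the furthest region end, against 2.84% on V and 3.88% on X. The exact permutation p was 1 for both density and coverage.

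The median width of the members was 370 bp (interval 359 to 383), with quartiles of 279.75 and 516 bp. The medians of III, IV and V were 361, 364 and 360 bp, and their intervals overlapped that of II. X had a median of 397 bp (387 to 408), outside the interval of II. The exact permutation p for II against the other 4 chromosomes was 1. Members under 100 bp numbered 62 (5.76%), and members of at least 1 kb numbered 58 (5.39%, interval 4.12 to 6.91), a share within the range of 4.09% on IV to 7.10% on X.

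**Figure D2:**
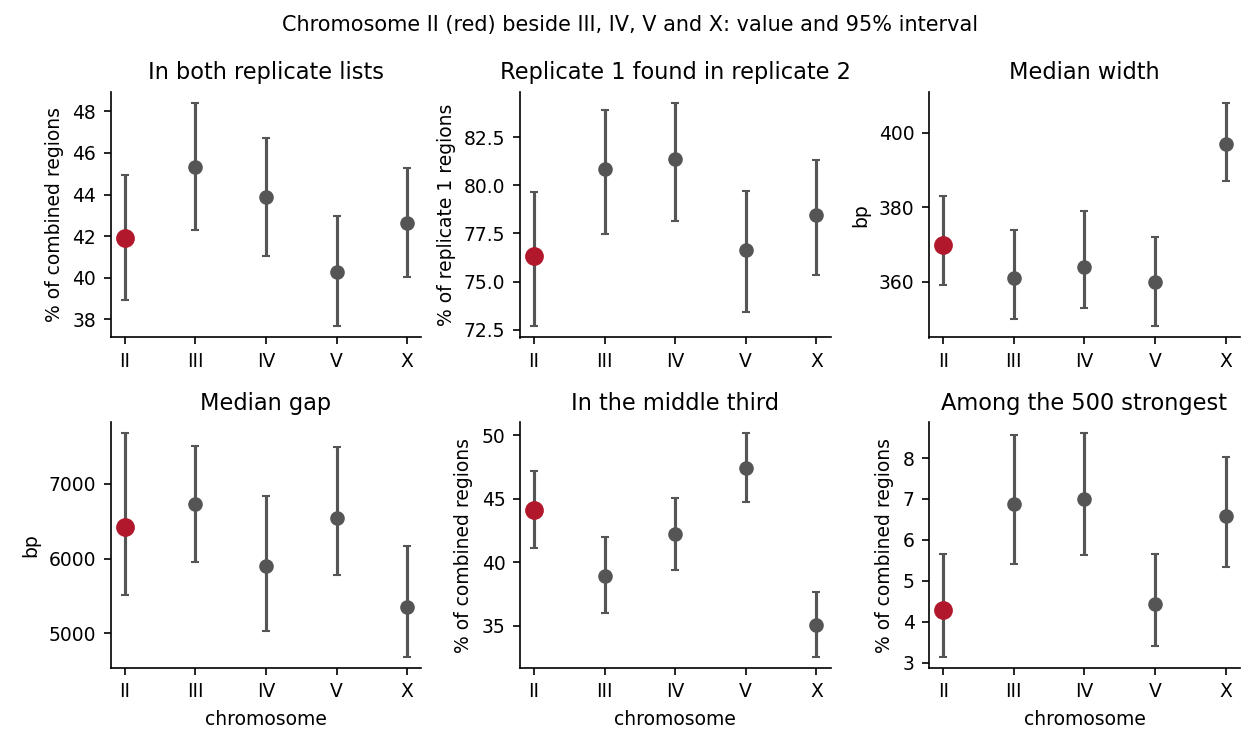
Values for chromosomes II (red), III, IV, V and X with 95% intervals: percent of combined regions in both replicate lists, percent of replicate 1 regions found in replicate 2, median width and median gap in bp, percent of combined regions in the middle of 3 equal parts and percent of combined regions among the 500 strongest of the whole list. The vertical axes do not start at 0. The value of II is the lowest of the 5 for replicate 1 overlap by at least 1 bp (76.3%) and for the 500 strongest (4.28%). Its interval meets that of V in every panel.

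Of the 1076 members, 451 were replicated (41.9%, interval 38.9 to 44.9), against 41.2% of the whole combined list. A further 136 (12.6%) were found in replicate 1 alone and 266 (24.7%) in replicate 2 alone. The remaining 223 (20.7%, 18.3 to 23.3) were in neither replicate list, against 25.7% of the whole list. The corresponding shares on III, IV, V and X ran from 22.4% to 24.3%, all below that of the whole list. The whole list also holds regions outside II, III, IV, V and X, and these raise its share in neither list. The whole-list shares are therefore not a baseline for the compared chromosomes. Against the mean of III, IV, V and X (43.0%), the replicated share of II was lower, not higher. The replicated share of II stood below III (45.3%), IV (43.9%) and X (42.7%) and above V (40.3%), all intervals overlapping (exact permutation p = 0.8). With a reciprocal overlap of 50% the share was 38.0% and no longer below the mean of the other 4 chromosomes.

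By class medians, replicated members were the strongest and widest of the chromosome. Their median width was 477 bp and their median q 1.66e-11. Members in replicate 1 alone had a median width of 346 bp and a median q of 6.07e-05, and those in replicate 2 alone 329 bp and 0.000142. Members in neither list had a median width of 252 bp and a median q of 0.00356. The classes overlapped: the lowest q was 1.36e-18 in replicate 1 alone and 1.25e-23 in replicate 2 alone. Of the 62 members under 100 bp, 45 were in neither list and 0 were replicated. The combined list was made from both replicates, so replication and combined strength are not independent measures.

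From the side of the replicates, 454 of the 595 replicate 1 regions on II overlapped a replicate 2 region (76.3%, interval 72.7 to 79.7), against 79.4% over the whole list. In the other direction 457 of 776 overlapped (58.9%, 55.3 to 62.4), against 61.0%. By the rule of at least 1 bp, both shares were the lowest of the 5 chromosomes. Replicate 1 overlap was 76.6% on V and up to 81.3% on IV, and replicate 2 overlap was 59.8% on V and up to 64.2% on III. The interval of II overlapped that of every other chromosome for both shares, and the exact permutation p was 0.4 for each. The shares differed from the mean of III, IV, V and X by -3.01 and -2.48 points. With a reciprocal overlap of 50% these differences were -0.52 and -0.64 points, and II was the lowest for neither share. With midpoints within 200 bp they were -2.88 and -2.47 points, and II was not the lowest for replicate 1.

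The overlap fell with strength, when every list was ranked by q and cut into 4 groups of equal size. Of replicate 1 regions on II, 125 of 129 in the strongest group were shared (96.9%), then 141 of 159 (88.7%), 99 of 154 (64.3%) and 89 of 153 (58.2%). Of replicate 2 regions, 163 of 171 were shared (95.3%), then 145 of 197 (73.6%), 85 of 200 (42.5%) and 64 of 208 (30.8%). In the strongest group the share of II was the lowest of the 5 chromosomes for replicate 1, where the others ran from 97.9% to 99.4%; its interval, 92.3 to 99.1, overlapped theirs. In replicate 2 it was above the 93.5% of V.

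Replicate regions were matched by longest overlap, which fixes much of their nearness in position, and their scores were compared. Over 452 matched pairs on II, the scores had a Spearman correlation of 0.61 and a Pearson r of 0.76, as a description across regions. The midpoints of matched regions on II lay a median of 27.5 bp apart, and 303 of the 452 pairs (67.0%) lay within 50 bp. Their shared bases made up a median of 81.7% of their joint span. The replicate 2 score was the higher in 259 of the 452 pairs.

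**Figure D3:**
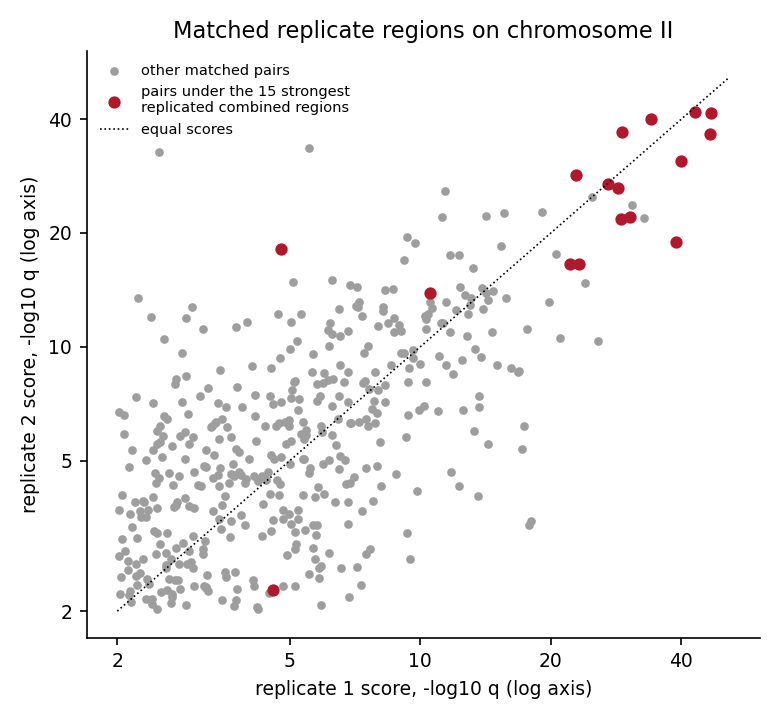
Scores of 452 matched replicate regions on chromosome II, replicate 1 on the horizontal and replicate 2 on the vertical axis, both logarithmic. Points in red lie under the 15 strongest replicated combined regions, and the dotted line marks equal scores; the Spearman correlation over all pairs is 0.61.

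The strongest region on II lay at 6835579 to 6837673. It was 2095 bp wide with a combined q of 1.75e-86, place 20 of the whole list. Replicate 1 called it at 6835582 to 6837680 with q 2.78e-47, its place 23. Replicate 2 called it at 6835598 to 6837596 with q 3.55e-37, its place 35. Both replicates thus placed it near the top, with starts within 19 bp of each other and of the combined start.

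The next was 3957325 to 3959636, 2312 bp wide, with q 1.08e-80 and place 28. It lay in the sparse left part of the chromosome. Its replicate 1 call had place 28 (q 1.01e-43). In replicate 2 it overlapped 2 regions, the better with place 21 (q 2.08e-42). Another strong region of the sparse left part was 2454629 to 2455318, 690 bp wide, with q 1.74e-68. Its replicate places were 83 (q 5.96e-30) and 32 (q 1.23e-37).

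Narrow regions were among the strongest too. The region at 4299188 to 4299640 was 453 bp wide with q 4.17e-61, place 55 of the combined list. It was called as 400 bp in replicate 1 (q 8.86e-35, place 55) and as 448 bp in replicate 2 (q 1.22e-40, place 27). No other combined region lay within 59215 bp of it, the greatest isolation of the 15 strongest. The region at 10563200 to 10563784 was 585 bp wide with q 1.07e-51 and stood at place 34 in replicate 1 (q 1.33e-40) and 60 in replicate 2 (q 1.01e-31). The region at 8561164 to 8561640, outside the 15 strongest and singled out after its values were seen, had q 3.02e-45 over 477 bp.

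The 15 strongest, all taken from members found in both replicate lists, included 2 neighbouring wide regions. The region at 10550015 to 10553981 had a combined q of 6.03e-61 (place 58) and place 22 in both replicates, with q 1.33e-47 and 3.47e-42. It was the best replicate 1 region on II. Its replicate calls were narrower, at 1282 bp in replicate 1 and 2519 bp in replicate 2, than the 3967 bp of the combined region. The neighbouring region at 10546646 to 10549767, 247 bp away, had q 4.24e-53. It stood at place 155 in replicate 1 (q 1.48e-23) and 84 in replicate 2 (q 2.84e-29).

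Some other regions of the 15 had a lower q and a better place in replicate 1 than in replicate 2. That at 11633809 to 11636194 (q 4.91e-59) stood at place 38 in replicate 1 (q 1.05e-39) and 234 in replicate 2 (q 1.20e-19). The regions at 10388003 to 10390870 (q 1.10e-59), 11619064 to 11621196 (q 6.01e-57) and 9112568 to 9114080 (q 2.50e-52) also had better places in replicate 1, 87, 77 and 149, than in replicate 2, 180, 176 and 312. The first and the last of these 3 overlapped 2 replicate 2 regions each, and the place given is that of the better one. Those at 14039826 to 14040857 (q 1.46e-53) and 5543300 to 5544465 (q 3.25e-52) had close places, 107 and 97 for the first and 93 and 102 for the second. The lists differ in length, with 4077 regions in replicate 1 and 5335 in replicate 2, and a place depends on the whole list. At nearly equal q, 9.46e-28 in replicate 1 and 9.54e-28 in replicate 2, the region at 14039826 stood at places 107 and 97. These places are therefore not a measure of change.

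The last 2 of the 15 were split in the replicates. The region at 5336713 to 5338704 (q 3.04e-50, place 120) overlapped 2 regions in each replicate list, and the better of these stood at place 635 in replicate 1 (q 3.00e-11) and 263 in replicate 2 (q 7.06e-19). The region at 5911352 to 5912487 (q 1.27e-47, place 138) also overlapped 2 in each, the better at places 161 (q 6.44e-23) and 317 (q 2.91e-17). The first region outside the 15 had q 3.43e-47. All 15 lowest q-values on II belonged to replicated regions, and their median width was 1992 bp against 370 bp for all members. Of the 15, 11 lay between 5 and 12 Mb, a zone with 60.1% of all members. In the middle of 3 equal parts of the chromosome lay 5 of the 15, against 44.1% of all members.

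The share of regions among the strongest of the whole combined list was lowest on II and nearly as low on V. This was examined after the values were seen. Of the 1076 members on II, 46 were among the 500 lowest q-values (4.28%, interval 3.15 to 5.66). The share over the whole list was 6.46%. That list also holds regions outside the 5 compared chromosomes, so its share is not a baseline for them. The shares were 6.87% on III, 7.01% on IV, 4.43% on V and 6.59% on X. The exact permutation p was 0.2, the smallest that 5 chromosomes allow, and the intervals of II and each of the others overlapped. In the strongest of 4 equal groups of each list, the exact permutation p for II was 0.4 (combined), 0.4 (replicate 1) and 0.6 (replicate 2). There II had 239 of its 1076 members (22.2%), 129 of 595 replicate 1 regions (21.7%) and 171 of 776 replicate 2 regions (22.04%), and V had a lower share than II in replicate 2 (21.6%).

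**Figure D4:**
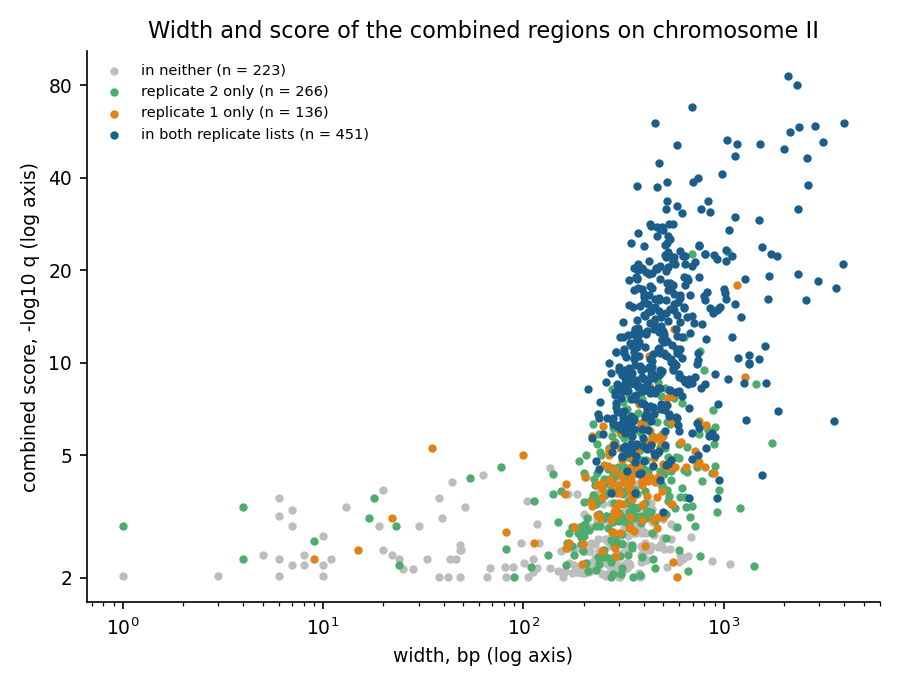
Width in bp and combined score of the 1076 combined regions on chromosome II, both on logarithmic axes, coloured by the replicate lists in which they were found. Members under 100 bp, 62 in all, lie at low scores and 0 of them are replicated, and scores span a wide range among members of 400 to 600 bp.

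Wider members tended to have higher scores, with a Spearman correlation of 0.61 as a description; the coefficients on III, IV, V and X were 0.64, 0.67, 0.65 and 0.64. Of the 58 members of at least 1 kb, 50 were replicated (86.2%), 2 were in replicate 1 alone, 5 in replicate 2 alone and 1 in neither. The replicated share of such regions was 79.0% on III, 83.7% on IV, 88.7% on V and 89.9% on X. A wide region offers more bases for an overlap of at least 1 bp, and the part of width in this share was not tested. The widest member, 3967 bp, was the region at 10550015 to 10553981 already described. The next at 14404151 to 14408074, 3924 bp wide, had a combined q of 1.08e-21. In replicate 2 it was called as 3931 bp with q 2.10e-33, place 52. In replicate 1 only 310 bp of it were called, with q 0.00319 and place 3402. Both lists thus cover the left end of this region and differ in its extent and rank, although it counts as replicated.

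The third widest, 10541885 to 10545517 with q 3.03e-18, lies in the stretch with most covered sequence, described below. The fourth, 8741965 to 8745521, spanned 3557 bp with q 3.48e-07 only, place 3231. Its replicate calls were 1656 bp (q 0.00178) and 1676 bp (q 0.000128). Great width was therefore not always accompanied by a strong score: this region is 7.85 times as wide as the 453 bp region at 4299188, whose q was 4.17e-61.

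Successive members on II lay a median of 6423 bp apart from end to start (interval 5507 to 7674), with quartiles of 1818 and 18090.5 bp. The medians of the other chromosomes ran from 5348.5 bp on X to 6732.5 bp on III, and each interval overlapped that of II (exact permutation p = 1). The direction of the small difference from their mean depended on the list: II was above it in the combined list and below it in replicate 1 (11381 bp). Of 1075 gaps on II, 292 were of 2 kb or less (27.2%, interval 24.5 to 29.9) and 179 of 1 kb or less. The 2 kb share was 26.5% on III and 29.2% to 30.0% on IV, V and X (exact permutation p = 0.6).

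The 5 longest gaps lay in the first 4 Mb or between 12 and 13 Mb. The longest, 153341 bp from 1614204 to 1767544, held 0 replicate 1 and 2 replicate 2 regions. It was followed by 143774 bp from 1852064, with 1 replicate 1 region and 0 of replicate 2, and by 140787 bp from 944114, with 0 and 1. The next were 122410 bp from 3564631, with 0 and 2, and 116175 bp from 12222942, which was empty in all 3 lists. Gaps over 50 kb numbered 55 and made up 26.5% of the length of II, between 19.4% on III and 35.0% on V.

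Dense stretches were defined as runs of at least 5 combined regions in which no gap exceeded 5 kb. II had 32 of them, 2.10 per Mb, against 1.67 on V, 1.89 on III, 2.12 on IV and 2.71 on X (exact permutation p = 1). They held 199 members (18.5%, interval 16.2 to 20.9) in runs of 5 to 11, and spanned a median of 11324 bp. Of the 32, 25 lay between 5 and 12 Mb and 0 in the first 4 Mb. Replicated regions made up 91 of the 199 members inside stretches (45.7%) and 360 of the 877 outside (41.0%). Median widths were 407 bp inside and 363 bp outside. By the same definition each replicate list taken alone had 9 stretches on II, and the replicated members alone had 3.

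The stretch with most covered sequence ran from 10537978 to 10563784. Its 8 combined regions covered 15967 bp, 61.9% of 25807 bp, and 6 were replicated. No stretch on III, IV, V or X had as much, their maxima being 7044, 11615, 6575 and 10860 bp. In the same interval the replicate 1 list held 6 regions covering 9308 bp (36.1%) and the replicate 2 list 8 regions covering 11151 bp (43.2%).

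From left to right, this stretch opened with a weak region of 255 bp at 10537978 (q 0.000174), found in replicate 2 alone. Then came 4 wide replicated regions almost end to end. They began at 10541885 (3633 bp, q 3.03e-18), 10546646 (3122 bp, q 4.24e-53), 10550015 (3967 bp, q 6.03e-61) and 10554708 (2966 bp, q 4.09e-19). The gaps between them ran from 247 to 1128 bp. A region of 101 bp at 10558073 (q 0.00588) was in neither replicate list. Next to it, the region at 10558418 to 10559755 (q 2.46e-11) was weak in replicate 1 (q 0.00133) and stronger in replicate 2 (q 4.43e-09). The stretch closed with the narrow strong region at 10563200. Of the 15 strongest regions of the chromosome, 3 lay in this stretch.

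The second stretch, 6826613 to 6853407, held 11 regions over 26795 bp, the most of any stretch on II, and 7 of them were replicated. It held the strongest region of the chromosome, at 6835579. Only the region at 6851812 to 6852330 (q 2.25e-34, place 299) also ranked high, at place 200 in replicate 1 and 471 in replicate 2. The other 9 had combined q-values between 2.89e-11 and 0.000504. Of these, the region at 6833238 to 6834517 (1280 bp, q 1.06e-09) was in replicate 1 alone.

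The third stretch, 5320063 to 5338704, held 10 regions over 18642 bp, 8 of them replicated. Its strongest members were the split region at 5336713, then 5321608 to 5322380 (q 2.39e-32; 1.14e-21 in replicate 1 and 2.62e-11 in replicate 2) and 5326102 to 5326623 (q 3.59e-25; 1.45e-14 and 4.11e-10). The first 6 regions lay within 6561 bp. One wide region, 872 bp at 5333679, had q 0.00534 and was in neither replicate list.

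**Figure D5:**
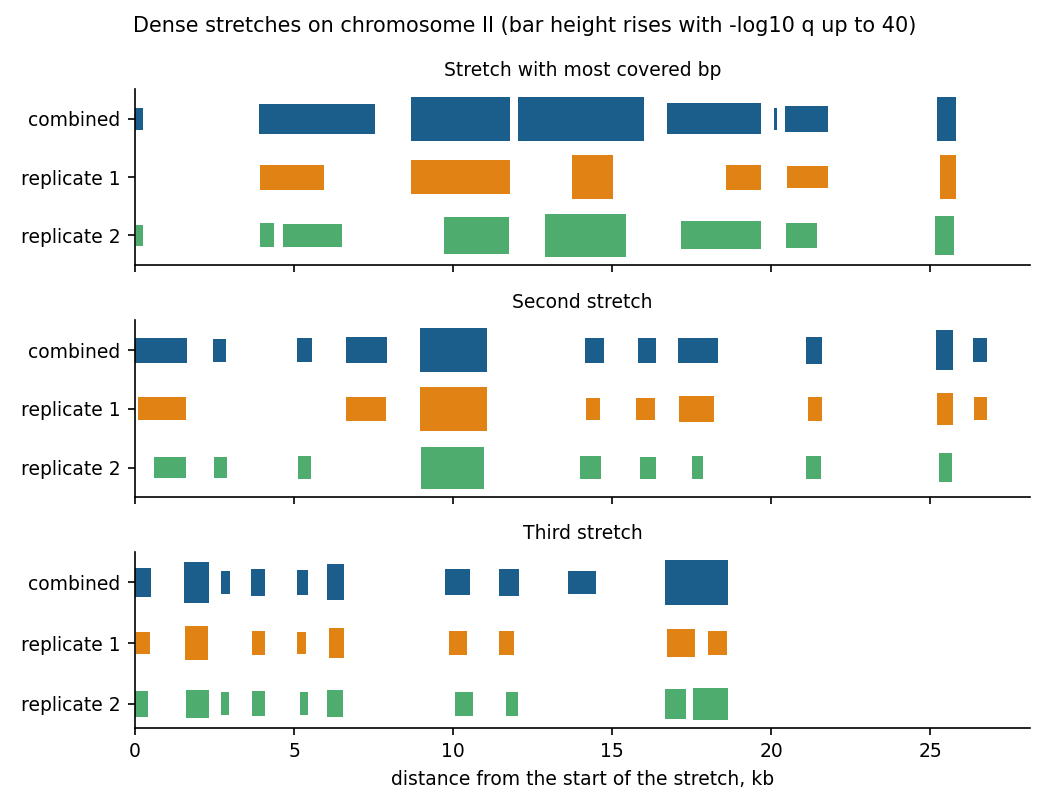
The 3 dense stretches of chromosome II with most covered sequence, drawn to scale by distance in kb from the start of each, with combined, replicate 1 and replicate 2 regions on separate lines; bar height rises with the score up to 40. In the first stretch 4 wide combined regions of 2966 to 3967 bp follow each other, and the replicate 1 region under the second of them has the same bounds.

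The remaining stretches covered less, down from 5720 bp at 6327256 to 6349032 (8 regions, 4 replicated). The stretch at 8740347 to 8750731 contrasted with the first 3: its 5 regions covered 5200 bp, 50.1% of the span, but 1 was replicated and the lowest q was 3.48e-07.

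Some strong regions on II had no partner in the other replicate. In replicate 1 the strongest was 9225381 to 9227466 (2086 bp, q 6.42e-25, place 131), and the nearest replicate 2 region was 3796 bp away. It overlapped 3 combined regions, of which the one with the longest overlap was 1160 bp wide with q 1.36e-18. The next replicate 1 regions without a partner were much weaker, at 11657549 to 11658146 (q 4.63e-12) and 4999173 to 4999597 (q 4.52e-10).

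In replicate 2 the strongest without a partner was 11756494 to 11757203 (710 bp, q 1.52e-30, place 69), 2049 bp from the nearest replicate 1 region. It was followed by 7528786 to 7529874 (1089 bp, q 7.42e-26, place 113) and 11761592 to 11762392 (801 bp, q 4.35e-19). The first and the last of these lay 4388 bp apart. All 6 regions without a partner named here overlapped a combined region. For 4 of them the combined region with the longest overlap had a weaker q than the replicate region.

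Of the replicate 1 regions on II, 588 of 595 (98.8%) also overlapped a combined region, as did 723 of 776 replicate 2 regions (93.2%). The 7 and 53 that were not had q-values of at least 0.000981 and 0.000765. Those of replicate 2 had a median width of 117 bp. Of the replicate regions on II in the stronger 2 of the 4 groups by q, 0 were missing from the combined list. On V, by contrast, 6 replicate 1 and 5 replicate 2 regions of the strongest of the 4 groups were missing, which touches the values given for V.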

How the data were processed

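Per the file headers, the deposited values are PeakSeq q-values of regions on WormBase WS190. Neither aligner nor PeakSeq settings are given in the sources used here, nor is the control behind each list or how replicates were combined. No WS190 genome or annotation was used.

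From these lists, overlap (at least 1 bp), widths, gaps, 1 Mb bins by midpoint and dense stretches were computed; chromosome length was the furthest region end in any list. Overlap counts equalled those of bedtools 2.31.1, and the code recovered built-in overlaps on simulated data. Chromosome I was not compared. Alternatives are given in the closing section. Python 3.11.15, numpy 2.4.6, pandas 2.3.3, scipy 1.17.1 and matplotlib 3.10.9 were used. Named regions were the 15 strongest replicated, the 5 widest, those of the 3 stretches with most covered bp, the 3 strongest unpartnered per replicate and the 5 longest gaps. Chromosome II and these rules were chosen with earlier results of these data known.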

Additional observations from a re-analysis of the deposited data

How the results depend on the processing

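The test against the other chromosomes cannot reach 0.05, so an alternative could change only a value or the side of their mean on which II lay. Of 66 alternatives, 30 stayed within the 95% interval of the reported share or median (for other values, within 1.5 times; for the fullest bin, the same bin), 31 went outside it, some by little, and 5 changed side. With a reciprocal overlap of 50%, the replicated share of II was 38.0% and reversed to above the mean, and the replicate 1 and replicate 2 overlaps were 70.4% and 54.0%; with midpoints within 200 bp they were 38.2%, 70.4% and 54.0%. In the 3872 best-scored combined regions and in the replicated regions alone, density was 34.0 and 29.5 per Mb, coverage 2.07% and 1.86%, median width 465 and 477 bp, the share of gaps of 2 kb or less 17.6% and 15.8%, and stretches numbered 4 and 3. The median gap reversed to below the mean in both, at 12946.5 and 14723.5 bp. These values follow in part from fewer regions. Without regions under 100 bp, 30 stretches were found, now above the mean per Mb. With regions within 500 bp merged, the median gap was 8013 bp, the close share 21.1% and the stretches 18. A limit of 1 kb and of 5 kb gave close shares of 16.7% and 44.3%, and gaps of up to 2 and 10 kb gave 8 and 61 stretches.

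With 1 replicate left out, the other's own list was taken. Density was then 39.0 to 50.8 per Mb, coverage 1.87% to 2.19%, median width 350 to 382 bp, median gap 9824 to 11381 bp (below the mean in replicate 1), the close share 19.2% to 20.6%, stretches 9 in each, the middle share 44.8% to 46.7%, and the fullest bin began at 5 or 9 Mb. Leaving out the strong regions of V absent from the combined list, chosen after the data were seen, changed no direction. No paired analysis was possible because the lists hold no values per library. Unknown depth limits any reading of a region missed in 1 list.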

Other observations

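On every one of the 5 chromosomes and in each list, the shortest gap between successive regions was between 200 and 223 bp, so regions closer than about 200 bp do not occur as separate entries. On II the shortest gap was 204 bp in the combined list, 223 bp in replicate 1 and 210 bp in replicate 2. Of the 3 gaps between the 4 wide regions at 10541885 to 10557673, the shortest was 247 bp and the longest 1128 bp.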
